A study of Homo sapiens and Mus musculus with 100 samples.

Results

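The 34 genes described here are established transcriptional targets of p53, a stress-activated transcription factor, and were followed across every experiment of a study of vitamin B2 (riboflavin) deprivation in liver and gut cells. They were taken by gene symbol, by a rule that uses no measured value, but the list was chosen with earlier results of these data known. All 34 symbols were found among the 28035 genes listed in each of 6 human tables, and 29 of them, in mouse spelling, among the 24940 genes of each of 2 mouse tables. Tnfrsf10a, Tnfrsf10c, Tnfrsf10d, Tp53i3 and Tp53inp1 were not matched by that spelling. A filter on low values (at least 1 TPM, a measure of transcripts scaled to library size and transcript length, in at least 3 libraries, or 4 in liver) was passed by 33 of the 34 genes in the HepG2 time course, by 29 in Caco-2, by 32 in the AhR inhibitor and guide RNA tables and by 31 in the IDO/TDO inhibitor and Kyn tables. In mouse, 26 of 29 passed in hepatocytes and 21 of 29 in liver. TNFRSF10C, a decoy receptor, did not pass in any human table and has no test.

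p53 is held at a low level by MDM2, a ubiquitin ligase that is itself a p53 target, so that the pair forms a negative feedback loop. When DNA damage or another stress releases p53 from MDM2, it binds a response element built from a pair of palindromic decamers and switches on genes for cell cycle arrest, apoptosis, DNA repair and metabolism. In hepatocytes, p53 is known both for damage responses and for the control of lipid and glucose genes.

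The study asked how cells and mice respond to a lack of vitamin B2, the precursor of the cofactors FMN and FAD, and what part AhR plays in that response. AhR, the aryl hydrocarbon receptor, is a transcription factor switched on by ligands such as kynurenine, a breakdown product of tryptophan made by the enzymes IDO and TDO. RNA from 98 libraries in 8 tables was used, of 100 labelled samples in 32 groups. HepG2, a human liver tumour line, was kept with vitamin B2 (control) or without it (deprived) for 3, 6, 9 or 12 days. In separate experiments at day 12, control and deprived HepG2 were also given an AhR inhibitor, given an IDO/TDO inhibitor, or made to carry a control or an AhR guide RNA. In a further experiment, with no deprivation, HepG2 received DMSO or Kyn (the usual abbreviation of kynurenine), each with or without the AhR inhibitor. Caco-2, a human colon tumour line, was compared with and without vitamin B2 at day 9. AhR-flox mouse hepatocytes were treated with Ad-Cont or Ad-Cre, each with and without vitamin B2, and livers came from mice on a control or a vitamin B2 deficient diet. Hepatocytes and livers are both labelled 4 weeks. The column headers give the AhR inhibitor as 10 uM in the deprivation experiment. The names of the inhibitors, the dose of the AhR inhibitor in the Kyn experiment, the doses of the IDO/TDO inhibitor and Kyn, the guide site, whether the guide cells are a clone, the floxed exon, the mouse strain and what Ad stands for were not found in the labels or file headers. Each group held 3 libraries, except 4 per diet in liver, where 8 columns stand for 10 labelled samples and the other 2 were not analysed here.

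Depth recovered from the values was 4049600 to 19644000 reads per library. The 9 hepatocyte markers (ALB, APOA1, TTR and others) were all above 0 in every HepG2 group, with a summed level of 12332 to 40962 TPM. In Caco-2 the 6 enterocyte markers (VIL1, CDX2 and others) were all above 0 and summed to 82.1 to 145 TPM. By the labels' protocols the library was primed at the poly(A) tail, and TPM divides by transcript length. A level in TPM is therefore compared here between samples of 1 table and never between genes. Fold changes are differences of log2(TPM + 1), and a gene is called higher or lower where the adjusted p of limma's moderated test over all genes tested is below 0.05. The labels do not say whether replicates are separate cultures or animals. The p-values therefore reflect the spread between these libraries alone, which may be technical. In RNA from whole cultures or tissue, fewer cells of a type and less RNA per cell cannot be told apart.

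Promoter sequence from RefSeq (build GRCh38.p14) was matched to 26 of the 34 genes, in windows of 250 bases before to 50 bases after each annotated start, and searched for the p53 consensus response element. A match needed both decamers, with 0 or 1 or 2 bases between them, their invariant C and G kept, and at most 3 mismatches elsewhere. The element reads the same on both strands, so a search of 1 strand covers both. It was found in 6 of the 26 genes (23.1%), against 1199 of 27305 genes in the table (4.39%). The members had 1.5 windows per gene and all genes 1.29. With at most 2 mismatches the counts were 4 of 26 (15.4%) and 259 of 27305 (0.949%). A match describes these letters and does not show binding, and many known p53 elements lie outside such a window. The sequences of MDM2, FDXR, FAS and AEN are shown as examples. These genes were called higher in every day 12 deprivation experiment described below and hold the element within the 250 bases before the start. DDB2 and SESN1 were called higher in each as well, and only their elements are given below. Each sequence shown runs 5′ to 3′ on the gene's own strand over the 250 bases up to the start, and the capitals mark the element.
MDM2: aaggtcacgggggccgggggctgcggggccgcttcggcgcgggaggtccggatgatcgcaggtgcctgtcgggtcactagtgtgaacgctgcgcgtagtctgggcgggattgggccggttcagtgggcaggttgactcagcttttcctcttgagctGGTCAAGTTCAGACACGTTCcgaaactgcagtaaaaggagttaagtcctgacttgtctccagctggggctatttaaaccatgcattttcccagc
FDXR: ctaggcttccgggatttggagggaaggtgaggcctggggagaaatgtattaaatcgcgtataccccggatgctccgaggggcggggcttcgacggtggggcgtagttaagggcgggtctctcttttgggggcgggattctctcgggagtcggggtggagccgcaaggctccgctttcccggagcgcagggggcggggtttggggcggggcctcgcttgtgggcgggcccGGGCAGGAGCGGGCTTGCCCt
FAS: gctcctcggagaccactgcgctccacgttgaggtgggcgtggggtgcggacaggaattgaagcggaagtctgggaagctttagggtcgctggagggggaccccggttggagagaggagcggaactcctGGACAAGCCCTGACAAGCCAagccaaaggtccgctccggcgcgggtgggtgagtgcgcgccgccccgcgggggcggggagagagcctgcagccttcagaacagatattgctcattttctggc
AEN: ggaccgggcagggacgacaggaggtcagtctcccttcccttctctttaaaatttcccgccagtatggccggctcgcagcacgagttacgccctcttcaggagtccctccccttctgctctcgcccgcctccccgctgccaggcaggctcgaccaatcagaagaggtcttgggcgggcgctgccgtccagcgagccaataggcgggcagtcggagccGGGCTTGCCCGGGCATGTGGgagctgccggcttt

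The starts meant here are those of the RefSeq promoter table, which lists more than 1 start for some genes, and they are not always the start of the transcript the deposited tables use. The start used here lies 845 bases downstream of that transcript's start for MDM2, 143 for FAS, 44 for AEN, 37 for FDXR and 32 for DDB2, and at the same base for SESN1. Distances before the start are given as the number of bases between the element and the start. The MDM2 run lies at chr12:68808767-68809016 on the plus strand, and its element has 2 mismatches and lies 74 bases before the start. The FDXR run lies at chr17:74872995-74873244 on the minus strand, with 3 mismatches and the element 1 base before the start. The FAS run lies at chr10:88991181-88991430 on the plus strand, with 2 mismatches and the element 102 bases before the start. The AEN run lies at chr15:88621090-88621339 on the plus strand, with 2 mismatches and the element 14 bases before the start. The element in DDB2 was the only one among the members without a mismatch, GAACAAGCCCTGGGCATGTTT at chr11:47214979-47214999 on the plus strand, just after the annotated start. SESN1 held a match with 3 mismatches, GGACAAGTCTCCACAAGTCA at chr6:109009018-109009037 on the minus strand, 29 bases before its start.

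**Figure D1:**
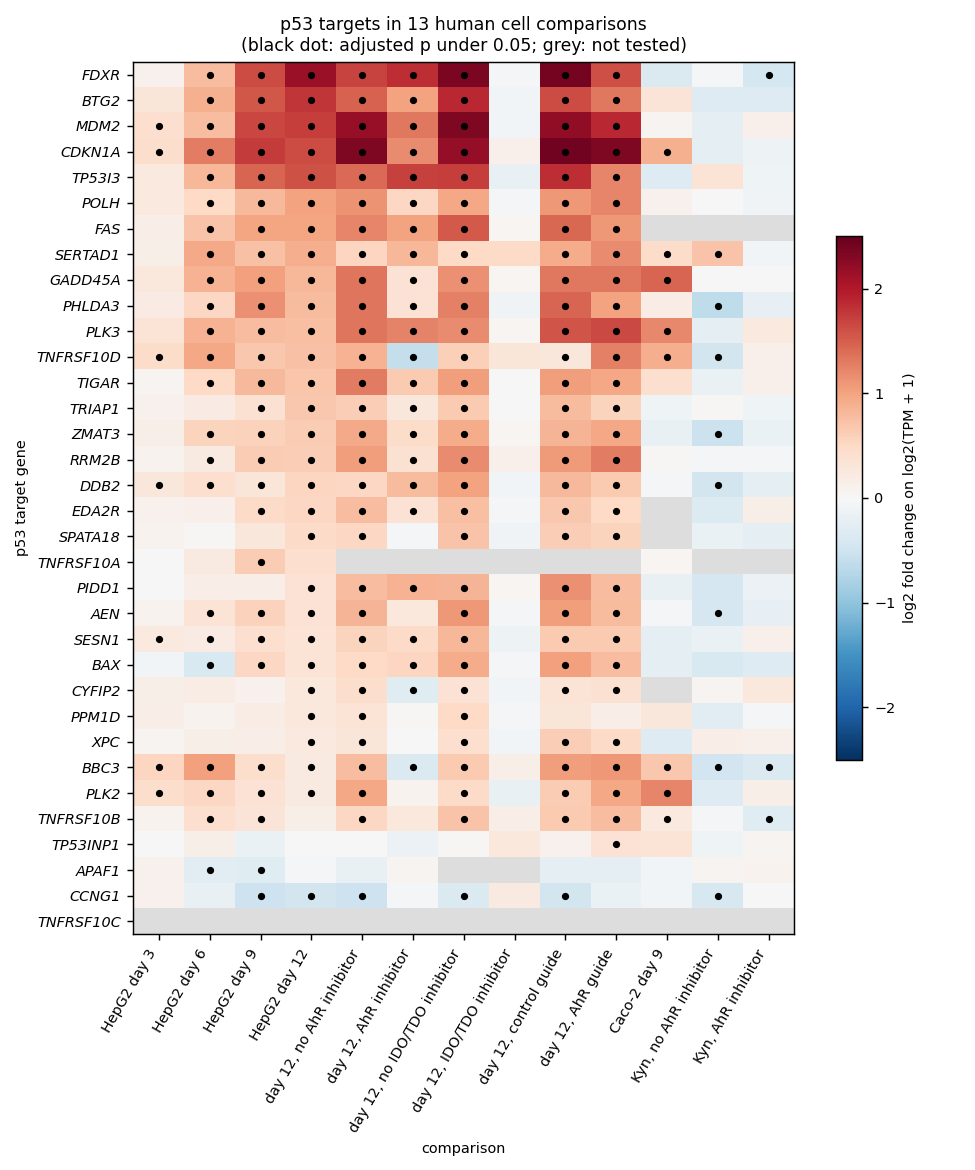
Log2 fold changes of the 34 p53 target genes (rows) in 13 human comparisons (columns), on the log2(TPM + 1) scale, with n = 3 libraries per group. Dots mark genes called at an adjusted p below 0.05 and grey marks genes that did not pass the low-value filter; most rows are positive wherever HepG2 was deprived for 9 or 12 days, and mostly near 0 where the IDO/TDO inhibitor was present.

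In the HepG2 time course the number of p53 targets called higher in deprived cells than in same-day controls went from 7 at day 3 to 28 at day 12. At day 3, 7 of 33 tested genes were called higher and 0 lower (of all 12488 genes tested, 2.74% were higher and 2% lower). At day 6 the counts were 21 higher and 2 lower (19% and 14% of all genes), at day 9 they were 25 and 2 (29.4% and 19.7%), and at day 12 they were 28 and 1 (34% and 18.4%). The median log2 fold change of the 33 genes was 0.14, 0.42, 0.57 and 0.54 at the 4 days, beside 0.02, 0.03, 0.06 and 0.10 for all genes. The 7 genes called at day 3 were CDKN1A, MDM2, BBC3, DDB2, PLK2, SESN1 and TNFRSF10D. A further 14 were first called at day 6, 4 at day 9 (BAX, EDA2R, TNFRSF10A and TRIAP1) and 5 at day 12 (CYFIP2, PIDD1, PPM1D, SPATA18 and XPC). APAF1, CCNG1 and TP53INP1 were not called higher on any day.

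Among the genes of cell cycle arrest, CDKN1A (chr6:36676537-36687339, hg38) encodes p21, the inhibitor of cyclin-dependent kinases through which p53 halts the cell cycle. At day 3 it stood at 64.0, 62.1 and 69.0 TPM in controls and 90.9, 86.7 and 88.6 TPM in deprived cells. At day 12 it stood at 39.5, 35.8 and 38.7 TPM in controls and 120.2, 120.4 and 116 TPM in deprived cells. Deprived libraries lay above every control on both days, and the distance grew between them. The log2 fold change was 0.44, 1.28, 1.75 and 1.62 at the 4 days (SE 0.05; adjusted p = 9.67e-06 at day 3 and 4.88e-17 at day 12). BTG2, an antiproliferative gene, held 2.28, 2.50 and 3.92 TPM in controls and 11.2, 11.8 and 13.7 TPM in deprived cells at day 12. The groups did not overlap, and the log2 fold change of 1.78 ± 0.13 (SE; adjusted p = 1.4e-10) was the highest of the members after FDXR. GADD45A, a stress sensor of growth arrest, rose by 0.84 on the log2 scale, and the kinase gene PLK3 by 0.75. PLK2, a related kinase gene, was highest against its controls at day 6 (0.52) and was 0.23 at day 12, a call that was lost without 1 library in 14 of 24 cases.

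MDM2 (chr12:68808172-68845544), the p53 ubiquitin ligase, stood at 19.3, 19.1 and 19.4 TPM in controls and 27.0, 28.1 and 23.0 TPM in deprived cells at day 3. By day 12 it stood at 14.6, 13.3 and 13.9 TPM in controls and 47.5, 51.7 and 47.1 TPM in deprived cells. All deprived libraries were above all controls, and the log2 fold change went from 0.41 at day 3 (adjusted p = 0.000687) to 1.73 ± 0.07 (SE; adjusted p = 2.14e-15) at day 12. PPM1D, the phosphatase that reverses p53 activation, differed less, with 0.27 at day 12 (adjusted p = 0.00742), and this call did not pass after quantile normalization (0.18, adjusted p = 0.0521). MDM4, the partner of MDM2, was not called at day 12 (-0.02, adjusted p = 0.866).

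The widest difference at day 12 was that of FDXR, the mitochondrial reductase that passes electrons from NADPH through an FAD group to ferredoxin. At day 3 it stood at 43.2, 45.6 and 45.7 TPM in controls and 50.2, 48.6 and 46.5 TPM in deprived cells. At day 12 it stood at 7.87, 9.28 and 9.11 TPM in controls and 46.7, 42.9 and 38.1 TPM in deprived cells. Controls had dropped to a low level that no deprived library came near, and the log2 fold change at day 12 was 2.16 ± 0.13 (SE; adjusted p = 1.14e-11). Between day 3 and day 12 FDXR changed by -2.23 in controls (adjusted p = 2.48e-12) and by -0.19 in deprived cells (adjusted p = 0.251). TP53I3, a quinone oxidoreductase gene, had the same kind of course, with 3.65, 2.98 and 3.99 TPM in controls and 14.0, 12.2 and 12.0 TPM in deprived cells at day 12. From day 3 to day 12 it changed by -1.47 in controls and by -0.12 in deprived cells, of which the former was called.

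The contrast at day 12 thus held changes of the controls as well as of the deprived cells. From day 3 to day 12, 6 of 33 members rose and 18 fell in controls, where 20.1% of all genes rose and 46.8% fell, and the median member changed by -0.31 beside -0.21 for all genes. After quantile normalization that split was 12 higher and 11 lower. In deprived cells 12 members rose and 1 fell (14.4% and 35.3% of all genes), with a median of 0.15 beside -0.12 for all genes. MDM2 rose in deprived cells over these days (0.88) and fell in controls (-0.44). BTG2 changed by -1.29 in controls, a call, and by 0.20 in deprived cells, which was not called. The effect of deprivation at day 12 minus that at day 3 was positive and called for 16 members and negative for 2 (23.8% and 13.9% of all genes). The largest of these differences was that of FDXR (2.05), followed by BTG2, TP53I3, MDM2 and CDKN1A.

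**Figure D2:**
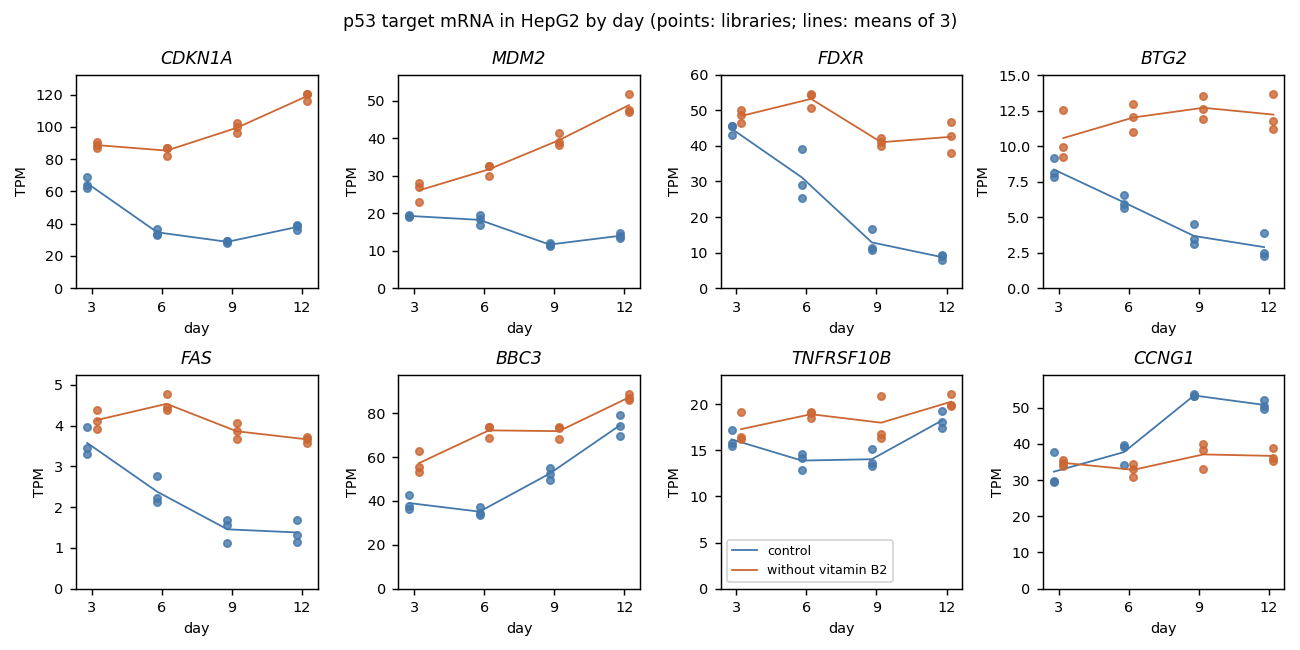
TPM of 8 p53 target genes in HepG2 at days 3, 6, 9 and 12, each point 1 library and each line a group mean (n = 3). FDXR, BTG2 and FAS fell in controls while staying near their day 3 level in deprived cells, whereas MDM2 rose in deprived cells.

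The genes of apoptosis did not share 1 course. BBC3 encodes PUMA, which neutralizes the survival proteins of the BCL2 family. At day 6 it stood at 34.6, 33.6 and 37.1 TPM in controls and 73.9, 73.9 and 68.9 TPM in deprived cells. At day 12 it stood at 69.8, 74.4 and 79.1 TPM in controls and 86.9, 86.2 and 88.7 TPM in deprived cells. The groups were far apart at day 6 (1.02 ± 0.07 SE, adjusted p = 8.49e-11) and close at day 12 (0.23, adjusted p = 0.0073), and controls rose by 0.92 from day 3 to day 12. The day 12 call did not pass after quantile normalization (0.05, adjusted p = 0.58).

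BAX, whose protein opens the outer mitochondrial membrane, was lower at day 6, with 17.5, 19.6 and 17.2 TPM in controls and 14.2, 13.3 and 13.2 TPM in deprived cells. The groups did not overlap, with a log2 fold change of -0.39 (adjusted p = 0.0105). At day 9 BAX was higher (0.52, adjusted p = 0.00056), and at day 12 it stood at 13.8, 16.7 and 13.3 TPM in controls and 20.1, 18.7 and 17.3 TPM in deprived cells. The day 12 difference of 0.34 (adjusted p = 0.0134) was lost without control replicate 1 or 3 or deprived replicate 1 of that day, with adjusted p up to 0.0649. It was also lost after quantile normalization (0.23, adjusted p = 0.107), and the day 6 call was lost without control replicate 2 of that day. APAF1, the scaffold of the apoptosome, was the other gene called lower at day 6 (-0.28, adjusted p = 0.0261) and was lower again at day 9 (-0.30), calls lost without 1 library in 4 and in 3 of 24 cases. AEN, a nuclease of apoptotic cells, rose by 0.36 at day 12, and PHLDA3, an inhibitor of AKT signalling, by 0.80.

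The death receptor genes differed in timing. FAS, the receptor of FAS ligand, stood at 1.31, 1.15 and 1.67 TPM in controls and 3.68, 3.73 and 3.59 TPM in deprived cells at day 12. These were low levels without overlap, with a log2 fold change of 0.98 ± 0.10 (SE; adjusted p = 2.3e-08). TNFRSF10B, the TRAIL receptor DR5, was called higher at day 6, at 14.6, 12.9 and 14.2 TPM in controls and 18.5, 19.1 and 19.2 TPM in deprived cells (0.42, adjusted p = 0.000325). At day 12 its difference was 0.15 (adjusted p = 0.14), not a call. TNFRSF10D, a decoy receptor of TRAIL, was called on all 4 days, from 0.47 at day 3 to 0.96 at day 6 and 0.73 at day 12. TNFRSF10A, the receptor DR4, was called at day 9 (0.64) at levels of 0.173 to 1.52 TPM. EDA2R, a receptor of ectodysplasin A2, was called at day 9 (0.48) and day 12 (0.51).

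The repair genes rose moderately. DDB2, which finds ultraviolet lesions in DNA and holds the perfect element shown above, differed by 0.28 at day 3 (adjusted p = 0.0234) and 0.54 at day 12. The day 3 calls of DDB2 and SESN1 (0.24, adjusted p = 0.0324) were lost without 1 library in 5 and in 4 of 24 cases. XPC, another damage sensor, was called at day 12 only (0.25), not after quantile normalization. The day 12 calls of XPC, CYFIP2 and PIDD1 were lost without 1 library in 3, 4 and 2 of 24 cases. POLH, a polymerase that copies past lesions, rose by 1.02 at day 12. RRM2B, a ribonucleotide reductase subunit, rose by 0.62. Among metabolic and stress genes, TIGAR, which lowers glycolytic flux, rose by 0.69, and the RNA-binding protein gene ZMAT3 by 0.63. CCNG1, a cyclin that recruits a phosphatase to MDM2, ran the other way. It stood at 52.1, 50.5 and 49.6 TPM in controls and 35.1, 36.1 and 38.8 TPM in deprived cells at day 12, without overlap (-0.46, adjusted p = 5.39e-05). It had risen in controls since day 3 (0.65) and differed by 0.07 in deprived cells, not a call. TP53INP1, a gene of autophagy and cell death, was at 8.03, 7.42 and 5.96 TPM and 7.17, 7.29 and 6.58 TPM, with no call on any day.

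A list of 24 other p53 targets was read beside the members. Of 23 tested, 7, 13, 14 and 15 were called higher and 0, 2, 2 and 3 lower at days 3, 6, 9 and 12, and the median at day 12 was 0.42. Of all genes, 2.74%, 19%, 29.4% and 34% were higher and 2%, 14%, 19.7% and 18.4% lower at these days. Among the other targets were GDF15, a secreted stress factor (0.87 at day 3 and 2.10 at day 12), and PMAIP1, which encodes NOXA (0.72 and 1.18). SESN2, a sestrin also controlled by other stress pathways, differed by 1.07 at day 6 and by 0.04 at day 12, where it was not called. Of 21 tested genes from a list of 23 p53 regulators, 5 were higher and 3 lower at day 12. The p21 protein acts through the DREAM complex to repress mitotic genes, and 16 of these were followed. They were called lower in 3, 15 and 11 of 16 cases at days 3, 6 and 9, and higher in 9 of 16 at day 12. In controls all 16 fell from day 3 to day 12 (median -2.39), and in deprived cells all 16 fell as well (median -1.82). The 9 hepatocyte markers moved with these results. Their sum was 13514 to 14009 TPM in controls and 12750 to 13034 TPM in deprived cells at day 3, and 30271 to 31902 TPM and 12376 to 12689 TPM at day 12. The 7 stellate or fibroblast markers summed to 32.4 to 38.3 TPM in day 12 controls and 138 to 146 TPM in deprived cells, with DES at 0 in both groups and DCN at 0 in the latter. The 6 macrophage markers summed to 4.72 to 5.46 TPM and 10 to 10.6 TPM, with C1QA at 0 in both. The 4 cholangiocyte markers summed to 241 to 255 TPM and 299 to 303 TPM, with KRT7 at 0 in controls. The part of these markers in the result was not tested.

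The day 12 comparison of deprived with control HepG2 was made in 4 experiments that share no library. Of 31 members tested in all 4, 27 were called higher in each and 1, CCNG1, lower in each, whereas of 11087 genes so tested 25.9% were higher and 7.95% lower in each. The remaining members were TNFRSF10B and PPM1D, each called higher in 3 experiments, and TP53INP1, called in none. CDKN1A differed by 1.62, 2.33, 2.20 and 2.41 in the time course, AhR inhibitor, IDO/TDO inhibitor and guide RNA experiments, in that order. MDM2 differed by 1.73, 2.17, 2.34 and 2.21, and FDXR by 2.16, 1.68, 2.35 and 2.38. TNFRSF10D ranged from 0.29 with the control guide to 0.88 in the AhR inhibitor experiment. Deprivation also moved the median of all genes in these experiments, by 0.20 to 0.30 in the 3 experiments beside the time course, and quantile normalization brought these medians to 0.02 or 0.03. Under it, XPC and CYFIP2 each lost the call in 3 of the 4 experiments, and PPM1D lost all 3 of its calls. PLK2 lost it in the time course and the IDO/TDO inhibitor experiment, and BAX and BBC3 in the time course. DDB2 lost it in the AhR inhibitor experiment, SERTAD1 in the IDO/TDO inhibitor experiment and TNFRSF10D in the guide RNA experiment. These genes were thus not called higher in each experiment after quantile normalization.

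**Figure D3:**
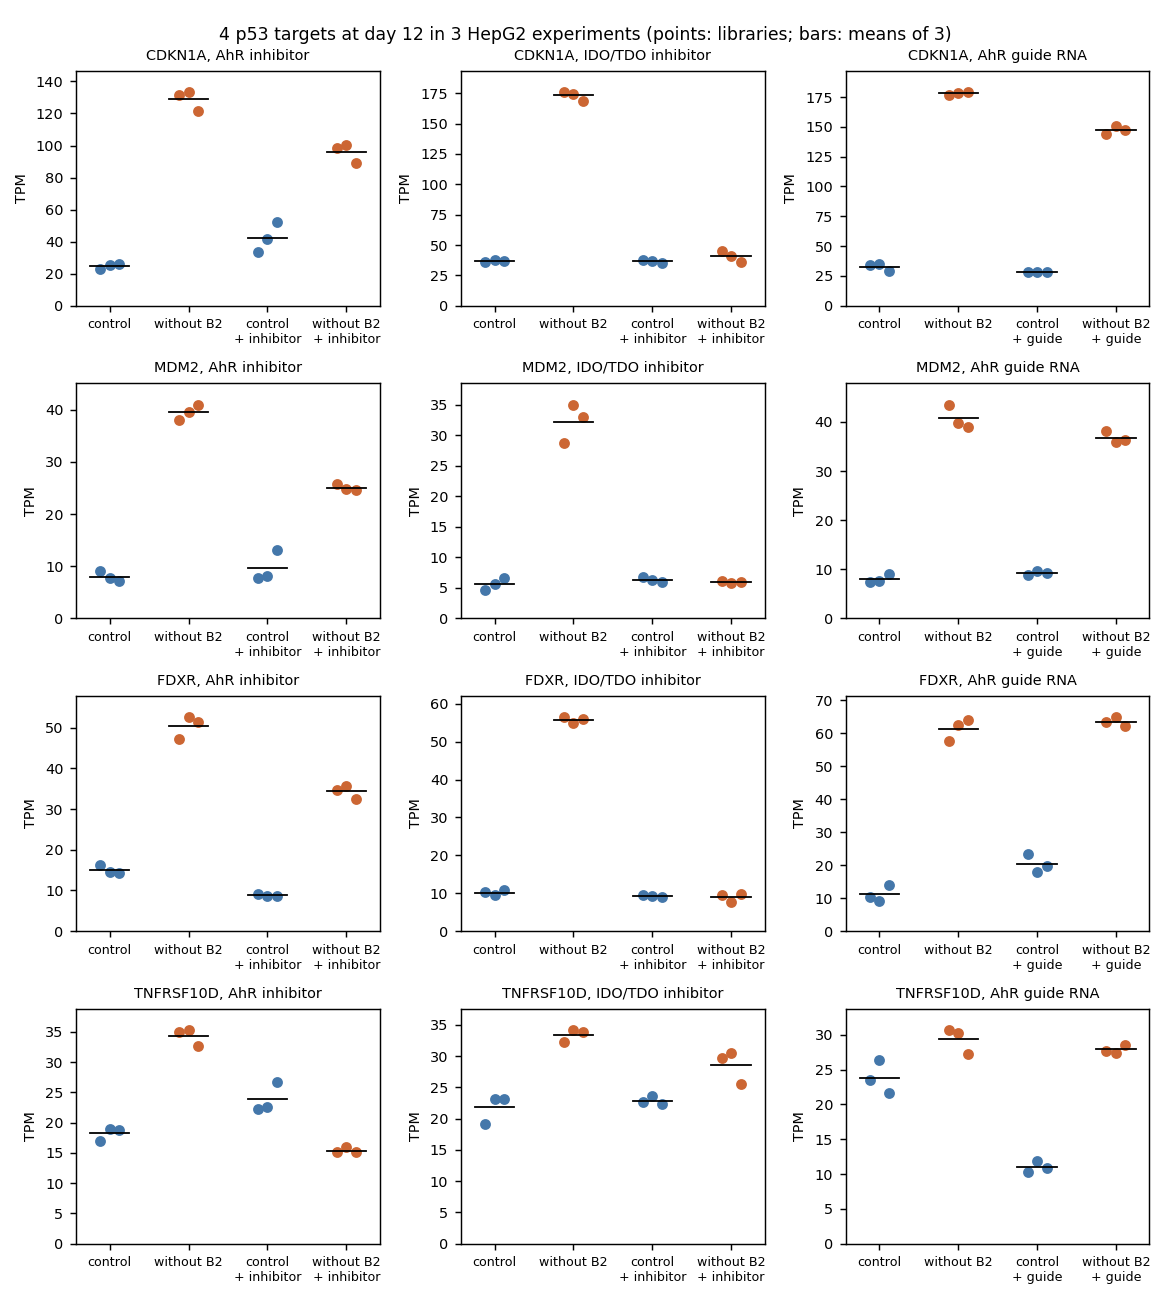
TPM of CDKN1A, MDM2, FDXR and TNFRSF10D at day 12 in the AhR inhibitor, IDO/TDO inhibitor and AhR guide RNA experiments, each point 1 library (n = 3 per group). Deprived libraries stand above controls in every panel without an inhibitor, while with the IDO/TDO inhibitor those of CDKN1A, MDM2 and FDXR lie among or near the controls and those of TNFRSF10D lie above them without a call; CDKN1A stays high with the AhR guide.

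With the AhR inhibitor the effect of deprivation was smaller or reversed for 13 of the targets. Without the inhibitor 29 of 32 tested members were called higher and 1 lower (44.6% and 16.9% of all genes), with a median of 0.81 beside 0.23 for all genes. With it 20 were higher and 3 lower (45.1% and 12.4%; median 0.37 beside 0.24), and after quantile normalization the latter split was 14 and 7. The change of the effect was called for 14 members, 13 of them negative and 1 positive (9.57% and 12.9% of all genes). By the column headers, libraries with and without inhibitor carry different date labels and lay in different folders. Inhibitor and date label therefore cannot be told apart, neither in the change of the effect nor where libraries with and without inhibitor are set side by side. Depth differed as well, at 12577700 to 19428000 reads with the inhibitor and 5891600 to 8976000 without. CYP1A1, the classic AhR target, was at 14.3, 15.2 and 14.3 TPM in deprived cells without the inhibitor and 1.75, 1.33 and 1.82 TPM with it.

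CDKN1A stood at 23.2, 25.2 and 26.1 TPM in controls and 132, 133 and 122 TPM in deprived cells without the inhibitor. With it the values were 33.7, 41.4 and 52.2 TPM and 98.6, 101 and 88.8 TPM. Deprived libraries were above their controls in both settings, while the controls were higher and the deprived cells lower with the inhibitor. The effect of deprivation went from 2.33 to 1.18, a change of -1.15 ± 0.17 (SE; adjusted p = 0.00033). MDM2 was at 9.10, 7.79 and 7.17 TPM and 38.0, 39.6 and 41.0 TPM without the inhibitor, and at 7.74, 8.06 and 13.1 TPM and 25.7, 24.8 and 24.5 TPM with it. Its effect went from 2.17 to 1.33, a change of -0.85 (adjusted p = 0.0108).

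BBC3 lost its rise. It stood at 39.1, 41.9 and 36.7 TPM in controls and 70.5, 65.8 and 66.1 TPM in deprived cells without the inhibitor. With it the values were 76.3, 92.3 and 122 TPM in controls and 72.9, 78.3 and 69.8 TPM in deprived cells, which overlap. The effect was 0.77 without and -0.36 with the inhibitor, a change of -1.13 (adjusted p = 0.00056). Replicate 3 of the controls with inhibitor holds the highest value, and without it, or without deprived replicate 1 or 3, the negative effect was not called (adjusted p up to 0.0818). TNFRSF10D turned. It was at 16.9, 18.9 and 18.8 TPM and 35.0, 35.3 and 32.6 TPM without the inhibitor, and at 22.3, 22.6 and 26.7 TPM and 15.2, 15.9 and 15.1 TPM with it. Deprived libraries went from above to below their controls, from 0.88 to -0.60, the largest change of any member (-1.47, adjusted p = 2.78e-06). CYFIP2, a regulator of actin assembly, also turned, from 0.43 to -0.30. GADD45A went from 1.34 to 0.36 and PHLDA3 from 1.33 to 0.35.

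Another group of members did not have a called change. FDXR stood at 16.2, 14.6 and 14.3 TPM and 47.2, 52.6 and 51.4 TPM without the inhibitor, and at 9.17, 8.53 and 8.62 TPM and 34.7, 35.8 and 32.5 TPM with it. All values were lower with the inhibitor, and the effect was 1.68 without and 1.85 with it (change 0.17, adjusted p = 0.281). For TP53I3 the change was 0.30 (adjusted p = 0.079), for FAS -0.22 (adjusted p = 0.599), for BAX 0.04 (adjusted p = 0.881) and for TNFRSF10B -0.27 (adjusted p = 0.326). CCNG1 was the 1 member with a positive change, from -0.52 to -0.02 (adjusted p = 0.00267). In control cells the inhibitor libraries had 10 members higher and 6 lower (14.6% and 21.3% of all genes), and in deprived cells 2 higher and 14 lower (18.6% and 21.7%). Both comparisons also run across the date labels. Without replicate 3 of the controls with inhibitor, the change of the effect was called for 2 positive and 14 negative members. The 16 DREAM genes ran opposite ways, with 14 lower on deprivation without the inhibitor and 16 higher with it. The hepatocyte markers, none at 0, summed to 38789 to 40248 TPM in controls and 12332 to 13045 TPM in deprived cells, and to 33841 to 37720 TPM and 18155 to 18426 TPM with the inhibitor. The stellate or fibroblast markers summed to 22.2 to 25.3 TPM and 81.7 to 90.9 TPM, and with the inhibitor to 24 to 34 TPM and 42.1 to 49.7 TPM, with DES at 0 in all 4 groups. Their part in the result was not tested.

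With the IDO/TDO inhibitor none of the 31 tested members was called on deprivation, and few of all genes were. Without it 29 of 31 tested members were higher and 1 lower (53.6% and 14.3% of all genes; median 0.93 beside 0.30). With it 0 were called (0.854% and 0.532% of all genes; median -0.02 beside 0.03), 6 had an unadjusted p below 0.05 and limma's voom fit on recovered reads called 1. Leaving out control replicate 1 gave 2 calls, and leaving out control replicate 3 or replicate 3 of the deprived cells with inhibitor gave 1. The change of the effect was negative and called for 28 members and positive for 1 (41.5% and 12.2% of all genes). In control cells the inhibitor libraries differed in 0 members (0.00872% and 0% of all genes; 0 at an unadjusted p below 0.05, and 0 by voom). The column headers of all groups of this table carry the same date label and name no sequencing run.

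CDKN1A stood at 36.3, 37.6 and 36.9 TPM in controls and 176, 175 and 169 TPM in deprived cells. With the inhibitor it stood at 37.8, 37.1 and 35.4 TPM in controls and 45.2, 40.8 and 35.8 TPM in deprived cells. The latter groups overlap, and their values lie near those of the controls without inhibitor. The effect went from 2.20 to 0.13 (adjusted p = 0.503), a change of -2.07 ± 0.10 (SE; adjusted p = 2.12e-10). MDM2 was at 4.57, 5.56 and 6.65 TPM and 28.7, 35.0 and 33.1 TPM without the inhibitor, and at 6.72, 6.23 and 5.98 TPM and 6.08, 5.80 and 5.90 TPM with it. Its change of -2.42 (adjusted p = 3.17e-09) was the largest among the members. FDXR was at 10.2, 9.51 and 10.8 TPM and 56.5, 54.9 and 55.9 TPM without, and at 9.47, 9.13 and 9.02 TPM and 9.46, 7.61 and 9.80 TPM with the inhibitor (change -2.39, adjusted p = 2.52e-10).

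The apoptosis genes moved the same way in this experiment. BAX stood at 14.2, 13.2 and 11.3 TPM in controls and 22.7, 26.3 and 27.4 TPM in deprived cells, and at 13.4, 13.4 and 14.0 TPM and 10.4, 14.8 and 14.5 TPM with the inhibitor. Deprived libraries were all above controls without the inhibitor and overlapped them with it, and the change was -0.98 (adjusted p = 0.000141). FAS was low except in deprived cells without inhibitor, at 0.224, 0.572 and 0.237 TPM and 2.72, 2.79 and 3.14 TPM without it and 0.202, 0.414 and 0.412 TPM and 0.383, 0.356 and 0.388 TPM with it. Its change was -1.50 (adjusted p = 2.23e-06). FAS passed the low-value filter only through the deprived libraries without inhibitor. Its calls, which are part of the counts given above for this experiment, are therefore not independent of that group. BBC3 changed by -0.50 (adjusted p = 0.000536), which did not pass after quantile normalization (-0.25, adjusted p = 0.0537). TNFRSF10B stood at 13.5, 13.6 and 14.3 TPM and 22.1, 25.1 and 22.8 TPM, and at 13.4, 14.2 and 15.0 TPM and 16.0, 16.0 and 16.3 TPM with the inhibitor (change -0.55, adjusted p = 0.00034). With the inhibitor its deprived libraries lay above their controls by 0.17 without a call (adjusted p = 0.344).

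A few members departed from this pattern. SERTAD1, a cofactor of cyclin D kinases, had an effect of 0.49 without and 0.48 with the inhibitor, the latter not called (adjusted p = 0.0787), and no called change (-0.01, adjusted p = 0.956). Its call without the inhibitor was lost after quantile normalization (0.18, adjusted p = 0.306). TNFRSF10D changed by -0.29 (adjusted p = 0.0485), a call lost without 1 library in 9 of 12 cases and after quantile normalization (-0.04, adjusted p = 0.787). CCNG1 changed by 0.57 (adjusted p = 0.000631), from lower on deprivation (-0.35) to no call (0.22). Of 21 other p53 targets tested, 13 were higher and 2 lower without the inhibitor, and 1 higher and 0 lower with it. Of all genes, 53.6% were higher and 14.3% lower without the inhibitor, and 0.854% and 0.532% with it. The hepatocyte markers, none at 0, had a lower sum in deprived cells than in controls, and with the inhibitor a sum close to that of the controls. These markers summed to 39107 to 40650 TPM in controls, 18069 to 18648 TPM in deprived cells and 37718 to 38306 TPM in deprived cells with the inhibitor. The stellate or fibroblast markers summed to 17.2 to 20.9, 119 to 129 and 16.5 to 19.8 TPM in the same 3 groups, with DCN and DES at 0 in each. Their part in the result was not tested.

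With the AhR guide RNA the p53 targets rose on deprivation as well. Of 32 tested members, 28 were higher and 1 lower with the control guide (43.6% and 17.1% of all genes; median 0.98 beside 0.20), and 29 were higher and 0 lower with the AhR guide (37.6% and 15.6%; median 0.96 beside 0.15). The change of the effect was called for 1 member in the positive and 2 in the negative direction (6.16% and 8.23% of all genes). The voom fit called 1 and 8, and leaving out replicate 3 of the controls with control guide raised the count from 3 to 11. AHR mRNA was not lower with its guide in cells with vitamin B2, at 4.54, 4.37 and 6.51 TPM with the control and 4.48, 4.76 and 4.88 TPM with the AhR guide (-0.09, adjusted p = 0.641), a measure that cannot show a frameshift. CYP1A1 in deprived cells was 36.2, 32.0 and 32.4 TPM with the control guide and 1.83, 1.16 and 2.22 TPM with the AhR guide.

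CDKN1A stood at 34.4, 35.1 and 29.1 TPM in controls and 177, 179 and 179 TPM in deprived cells with the control guide. With the AhR guide it stood at 27.9, 28.1 and 28.6 TPM and 144, 151 and 147 TPM. Deprived cells were far above controls under both guides, with effects of 2.41 and 2.34, and their difference was -0.07 ± 0.09 (SE; adjusted p = 0.681). MDM2 was at 7.47, 7.71 and 8.95 TPM and 43.5, 39.8 and 38.9 TPM with the control guide, and at 8.91, 9.72 and 9.14 TPM and 38.1, 35.9 and 36.4 TPM with the AhR guide. Its effects were 2.21 and 1.88, and their difference of -0.33 was just outside the threshold (adjusted p = 0.0509). BBC3 rose by 1.04 and 1.09, FAS by 1.44 and 1.08, BAX by 1.03 and 0.77 and TNFRSF10B by 0.66 and 0.78, with no called difference for any of the 4.

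The 3 members whose effect differed between guides were FDXR, TP53I3 and TNFRSF10D. FDXR stood at 10.3, 9.13 and 13.9 TPM and 57.7, 62.3 and 64.1 TPM with the control guide, and at 23.5, 17.9 and 19.6 TPM and 63.5, 64.8 and 62.1 TPM with the AhR guide. The deprived groups overlap and the controls are higher with the AhR guide, so that the effect was 2.38 and 1.61 (difference -0.78, adjusted p = 0.0101). TP53I3 had the same layout, at 5.26, 4.70 and 4.95 TPM and 8.85, 9.94 and 8.43 TPM in the controls of the control and AhR guide (difference of effects -0.62, adjusted p = 0.00294). TNFRSF10D was at 23.6, 26.3 and 21.7 TPM and 30.7, 30.2 and 27.2 TPM with the control guide, and at 10.3, 11.8 and 10.9 TPM and 27.7, 27.4 and 28.6 TPM with the AhR guide. Here the controls were lower with the AhR guide and the deprived groups overlapped, with effects of 0.29 and 1.27 (difference 0.98, adjusted p = 7.86e-05). The rise of TNFRSF10D with the control guide did not pass after quantile normalization (0.10, adjusted p = 0.342).

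In cells with vitamin B2 the AhR guide was accompanied by 8 members higher and 9 lower (23.3% and 13.4% of all genes), and the voom fit gave 12 and 6. Without replicate 1 of the controls with control guide the 17 calls became 10. The highest were FDXR (0.83) and TP53I3 (0.75), and the lowest were TNFRSF10D (-1.05) and PLK3 (-0.51). In deprived cells 0 were higher and 4 lower (7.53% and 4.48%), namely BBC3 (-0.44), PLK3 (-0.41), CDKN1A (-0.28) and GADD45A (-0.22). Of these, PLK3 was lost without 1 library in 4 of 12 cases, GADD45A in 3 and CDKN1A in 1. The 4 calls became 2 without deprived replicate 1 of the control guide and 1 without deprived replicate 1 of the AhR guide. All 16 DREAM genes were lower on deprivation under both guides (medians -1.21 and -1.34). The hepatocyte markers, none at 0, summed to 38251 to 40104 TPM and 15797 to 16428 TPM in control and deprived cells with the control guide, and to 34105 to 35016 TPM and 18378 to 18569 TPM with the AhR guide. The stellate or fibroblast markers summed to 17.6 to 25.3 TPM and 102 to 115 TPM, and to 33.4 to 38.2 TPM and 81.8 to 93.8 TPM, with DES at 0 in all 4 groups. Their part in the result was not tested.

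Kyn given to HepG2 with vitamin B2 did not raise the p53 targets as a group. Of 31 tested members 1 was higher and 7 lower than with DMSO (6.11% and 5.54% of all genes; median -0.22 beside 0.02). The member that rose was SERTAD1, at 4.86, 5.66 and 4.48 TPM with DMSO and 7.99, 10.1 and 8.54 TPM with Kyn, without overlap (0.72, adjusted p = 0.00459). BBC3 was at 70.8, 68.6 and 73.7 TPM with DMSO and 49.8, 53.8 and 49.1 TPM with Kyn, a difference of -0.47 (adjusted p = 0.000192). PHLDA3 differed by -0.63, ZMAT3 by -0.54, TNFRSF10D by -0.47 and CCNG1 by -0.41. The calls of DDB2 (-0.45, adjusted p = 0.0211) and AEN (-0.42, adjusted p = 0.019) were each lost without 1 library in 3 of 12 cases.

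CDKN1A stood at 40.9, 38.5 and 40.3 TPM with DMSO and 34.9, 30.5 and 36.3 TPM with Kyn. The Kyn libraries were all lower, and the difference of -0.23 was not called (adjusted p = 0.0727). MDM2 was at 8.53, 9.49 and 9.45 TPM and 8.29, 6.90 and 7.43 TPM (-0.25, adjusted p = 0.0926), and BAX differed by -0.37 (adjusted p = 0.0752). TNFRSF10B differed by -0.05 (adjusted p = 0.757), and FAS did not pass the filter. CYP1A1 was not called either in these libraries, at 1.86, 1.50 and 1.84 TPM with DMSO and 1.77, 2.08 and 2.46 TPM with Kyn (0.18, adjusted p = 0.521).

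With the AhR inhibitor present, Kyn was accompanied by 0 members higher and 3 lower (1.74% and 9.1% of all genes), BBC3 (-0.36), FDXR (-0.43) and TNFRSF10B (-0.31). Of these, FDXR was lost without 1 library in 8 of 12 cases and TNFRSF10B in 4, and neither was called after quantile normalization, which gave 1 higher and 1 lower. The 3 calls became 1 without DMSO replicate 2 or 3, or Kyn replicate 1 or 3, of the inhibitor groups. The change of the Kyn effect was called for 2 members in the positive and 1 in the negative direction (2.11% and 6.83%), with 3 and 0 after quantile normalization and 4 and 0 by voom. TNFRSF10D stood at 29.9, 26.1 and 30.0 TPM with DMSO and 21.7, 18.7 and 21.0 TPM with Kyn, and at 26.9, 28.7 and 29.3 TPM and 30.1, 32.2 and 30.6 TPM with the inhibitor. It was lower with Kyn without the inhibitor only, a change of 0.59 (adjusted p = 0.00455). SERTAD1 changed by -0.78 (adjusted p = 0.025), lost without DMSO replicate 3 or Kyn replicate 2 (which left 1 call of the 3), after quantile normalization and by voom. CCNG1 changed by 0.39 (adjusted p = 0.0386), lost without 1 library in 10 of 12 cases. In Kyn-treated cells the inhibitor libraries had 7 members higher and 2 lower (4.36% and 17.6%), and 11 and 1 after quantile normalization. Those 9 calls became 4 without Kyn replicate 3 or Kyn with inhibitor replicate 2, and 5 without Kyn with inhibitor replicate 1. In DMSO-treated cells 0 were called (0% and 0% of all genes; 1 at an unadjusted p below 0.05, and 0 by voom).

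In Caco-2 a smaller set of the targets rose on deprivation at day 9. Of 29 tested members 8 were higher and 0 lower (14.3% and 19.5% of all genes), and the median was 0.06 beside -0.07 for all genes. GADD45A differed most, at 63.8, 64.6 and 68.7 TPM in controls and 183, 170.0 and 198 TPM in deprived cells (1.46, adjusted p = 1.68e-07). CDKN1A stood at 5.39, 5.69 and 5.60 TPM in controls and 9.80, 11.4 and 12.1 TPM in deprived cells. The groups did not overlap, with a log2 fold change of 0.88 ± 0.10 (SE; adjusted p = 0.000144). BBC3 stood at 50.0, 54.7 and 51.4 TPM and 84.1, 82.6 and 85.1 TPM (0.68, adjusted p = 1.58e-05). PLK2 differed by 1.23, PLK3 by 1.21 and TNFRSF10D by 0.91. PLK3 was at 0.852 TPM in control replicate 1 and passed the low-value filter only through the deprived libraries, so its call is not independent of that group. TNFRSF10B (0.25, adjusted p = 0.0425) and SERTAD1 (0.45, adjusted p = 0.0493) were each lost without 1 library in 5 of 6 cases.

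Several genes that led in HepG2 were not called in Caco-2. MDM2 stood at 3.01, 3.49 and 4.78 TPM in controls and 4.08, 3.82 and 3.80 TPM in deprived cells, overlapping (0.06, adjusted p = 0.787). FDXR stood at 4.52, 4.42 and 7.04 TPM and 5.63, 3.98 and 2.45 TPM, again with overlap (-0.36, adjusted p = 0.32). TP53I3 differed by -0.32 (adjusted p = 0.274), BAX by -0.22 (adjusted p = 0.606) and BTG2 by 0.33 (adjusted p = 0.0509). FAS was at most 0.063 TPM, and it, SPATA18, CYFIP2, EDA2R and TNFRSF10C did not pass the filter. HepG2 at day 9 had called MDM2 (1.68), FDXR (1.62) and TP53I3 (1.45), but the lines stand in separate tables and the difference between them was not tested. Of 21 other p53 targets tested in Caco-2, 5 were higher and 4 lower (14.3% and 19.5% of all genes), PMAIP1 (1.68) and GDF15 (1.79) among the former. The enterocyte markers summed to 135 to 145 TPM in controls and 82.1 to 87.4 TPM in deprived cells, and the hepatocyte markers, which Caco-2 also expresses, to 4061 to 4173 TPM and 2560 to 2809 TPM, with none of either list at 0. Their part in the result was not tested.

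**Figure D4:**
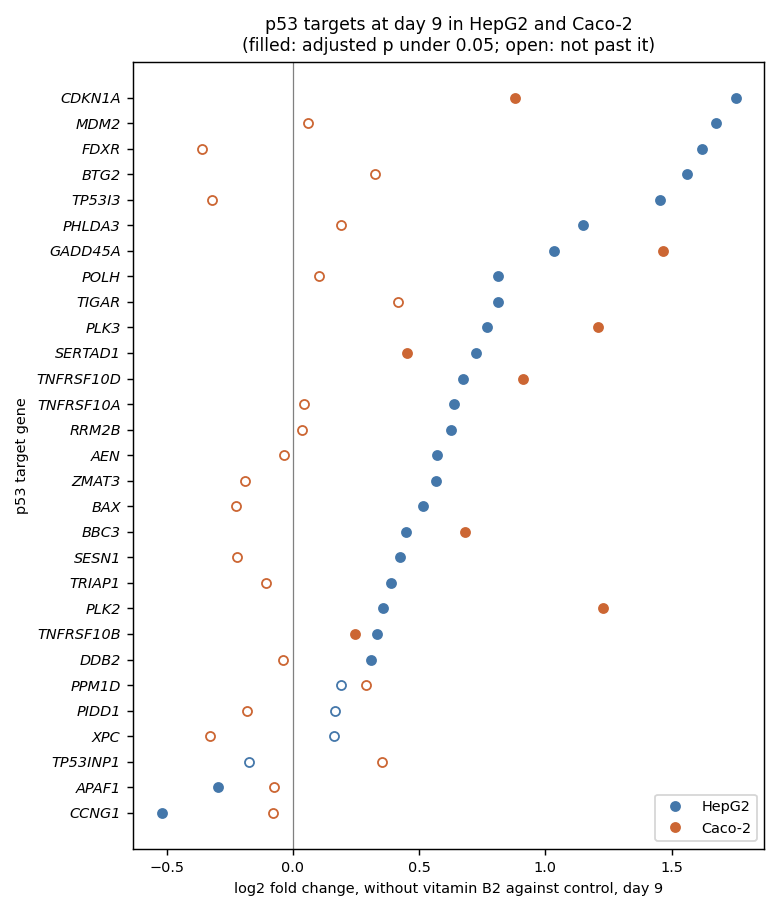
Log2 fold changes on vitamin B2 deprivation at day 9 for the 29 p53 target genes tested in both Caco-2 and HepG2, on the log2(TPM + 1) scale, with n = 3 libraries per group. GADD45A, CDKN1A, BBC3, PLK2, PLK3 and TNFRSF10D were positive in both lines, while MDM2, FDXR and TP53I3 were positive in HepG2 and near or below 0 in Caco-2.

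In mouse hepatocytes most of the targets were not called. With Ad-Cont, 1 of 26 tested members was higher and 3 were lower without vitamin B2 (4.32% and 5.46% of all genes; median -0.02 beside 0.00). Cdkn1a stood at 587, 610.1 and 619 TPM in controls and 674, 618 and 635 TPM without vitamin B2, with overlap (0.08, adjusted p = 0.328). Mdm2 stood at 68.8, 73.7 and 72.9 TPM and 61.4, 55.7 and 57.9 TPM. It was lower in every deprived library (-0.30 ± 0.06 SE, adjusted p = 0.0102), a call lost without deprived replicate 2 (adjusted p = 0.0511). Phlda3 (-0.36, adjusted p = 0.032), Triap1 (-0.23, adjusted p = 0.0478) and Tnfrsf10b (0.41, adjusted p = 0.0393) were lost without 1 library in 4, 10 and 6 of 12 cases. The 4 calls became 1 without Ad-Cont control replicate 2 or 3, 0 without Ad-Cont deprived replicate 2, and 2 without Ad-Cont deprived replicate 3 or Ad-Cre deprived replicate 2. Bax differed by -0.02 (adjusted p = 0.933), Bbc3 by -0.14 (adjusted p = 0.567) and Fas by 0.23 (adjusted p = 0.335).

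With Ad-Cre, 0 members were called on deprivation (0.214% and 0.115% of all genes), and 0 had a called change of the effect (0.181% and 0.0658%), with 1 at an unadjusted p below 0.05 and 0 by voom in each case. Between Ad-Cre and Ad-Cont, 0 were called with vitamin B2 (0.0165% and 0.00823%; 1 unadjusted, 0 by voom) and 0 without it (0.51% and 0.518%; 4 unadjusted, 0 by voom). Mdm2 with Ad-Cre was at 74.0, 65.5 and 65.1 TPM in controls and 68.0, 65.3 and 64.4 TPM without vitamin B2, with overlap. Of 14 DREAM genes tested in the Ad-Cont cultures, 13 were lower without vitamin B2 (median -1.27). Markers of other cells moved as well. The 7 stellate markers summed to 34.6 to 41 TPM in Ad-Cont controls and 12.8 to 24.5 TPM without vitamin B2, and the 4 cholangiocyte markers to 108 to 116 TPM and 59 to 103 TPM, none at 0. The hepatocyte markers summed to 10085 to 10415 TPM and 8506 to 9641 TPM. Their part in the result was not tested.

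In mouse liver 1 of 21 tested members was called on the vitamin B2 deficient diet, and it was higher (2.25% of all genes were higher and 1.16% lower; median 0.04 beside 0.14). This was Cdkn1a (chr17:29093769-29100722, mm10), at 0.651, 3.60, 0.985 and 2.71 TPM on the control diet and 10.3, 10.6, 19.5 and 29.0 TPM on the deficient diet. Every column on the deficient diet was above every control column, and the deficient values spread over a wide range. The controls at 0.651 and 0.985 TPM lay under the 1 TPM of the low-value filter. Cdkn1a therefore passed that filter only through the columns on the deficient diet, and its call is not independent of that group. The fold change was 6.17 on the TPM + 1 scale (log2 2.63 ± 0.44 SE; adjusted p = 0.0265). The call was lost without control column 1, 3 or 4 or deficient column 3 (adjusted p up to 0.0969), while the log2 fold change stayed between 2.35 and 2.88. Mdm2 stood at 7.91, 11.9, 13.3 and 9.04 TPM and 14.9, 11.7, 13.9 and 10.4 TPM, with overlap (0.27, adjusted p = 0.337). Bax differed by -0.02 (adjusted p = 0.953), Bbc3 by -0.30 (adjusted p = 0.596), Fas by -0.17 (adjusted p = 0.553) and Ccng1 by 0.26 (adjusted p = 0.296). Tnfrsf10b, Phlda3, Zmat3 and 5 others did not pass the filter. Of 18 other p53 targets tested 0 were called. The hepatocyte markers, none at 0, summed to 54143 to 65742 TPM on the control and 56251 to 76262 TPM on the deficient diet, ranges that overlap.

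**Figure D5:**
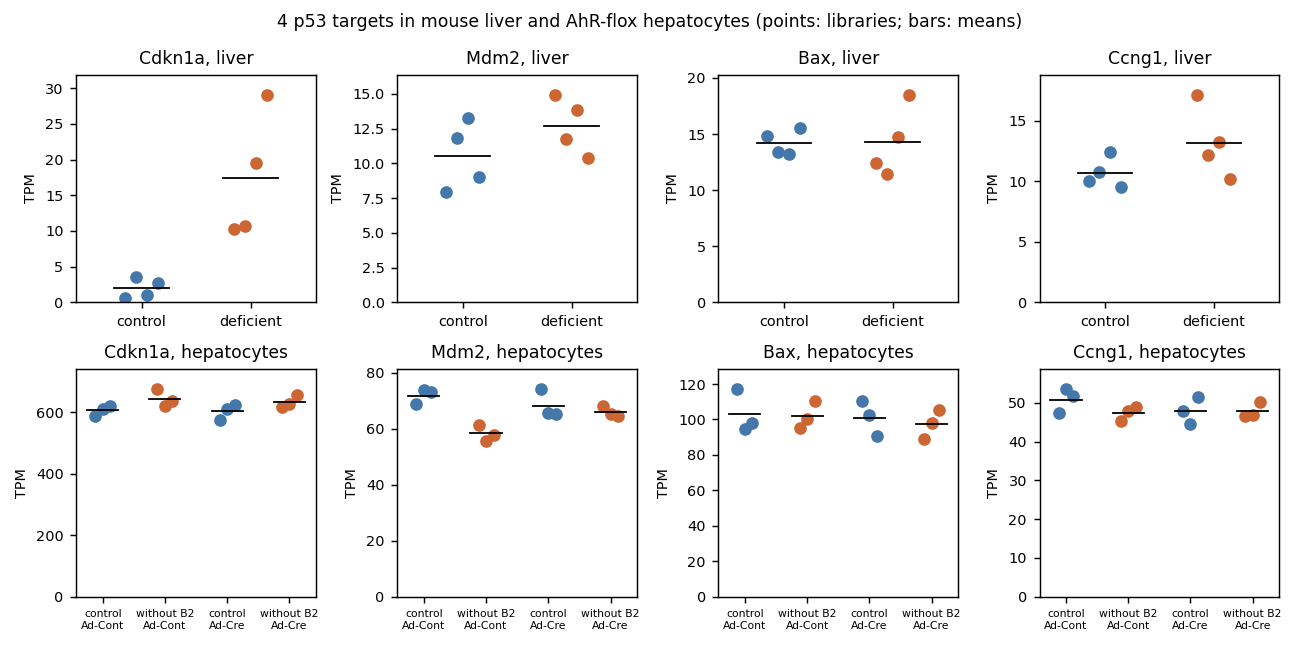
TPM of Cdkn1a, Mdm2, Bax and Ccng1 in mouse liver (n = 4 columns per diet) and in AhR-flox hepatocytes (n = 3 per group), each point 1 library. Cdkn1a is higher in all 4 liver columns on the deficient diet, and the hepatocyte groups overlap for Cdkn1a.

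Some members share sequence with a neighbour. The strand setting of the counting is not given in the sources used here, so reads of CDKN1A and DINOL, TNFRSF10B and RHOBTB2, POLH and GTPBP2, PLK3 and TCTEX1D4, TP53INP1 and NDUFAF6, and TP53I3 and FAM228B, which lie on opposite strands, cannot be told apart where they overlap. The TRAIL receptor genes TNFRSF10A to TNFRSF10D are close paralogs on chromosome 8, between which reads could be split.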

How the data were processed

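RNA was measured in 98 libraries of HepG2 and Caco-2 cells, AhR-flox mouse hepatocytes and mouse liver, made with the QuantSeq 3′ kit per the labels' protocols. The liver columns alone are named by run numbers of a public sequence archive, and those names do not give the kit. The authors deposited TPM, which per the file headers came from HOMER, with a single transcript per gene symbol. The submitters' processing notes name STAR, HOMER, Bowtie2 and the builds hg38 and mm10 without saying what each did. Aligner options and the strand setting of the counting: not given in the sources used here.

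Log2(TPM + 1) of each table was fitted alone, 1 mean per group, with limma 3.58.1 (R 4.3.3, data.table, version 1.17.8; eBayes, trend and robust both on), over genes with at least 1 TPM in at least 3 libraries (4 in liver). The two-sided p-values of each of 34 contrasts were adjusted over all genes tested (Benjamini-Hochberg, threshold 0.05). A change of an effect is the effect in the presence of an inhibitor, the AhR guide or Ad-Cre less the effect in its absence. The scale understates changes of low genes. The fit was tested on simulated data. Python 3.11.15, pandas 2.3.3 and matplotlib 3.10.9 served for tables and plots.

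Depth was recovered from TPM times length, which came out as whole multiples of 1 read in 100% of the values checked (within 0.1, for genes no longer than 3000 bases and no more than 20 reads). It was 4049600 to 11040400 reads per library in the time course, Caco-2, guide RNA, Kyn and hepatocyte tables, and 5891600 to 19644000 in the others. Alternatives were a pseudocount of 0.25, no filter, quantile normalization, a replicate block, voom on the recovered reads and leaving out each library. The plan had allowed for a count test, which TPM does not permit as the main test.

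Groups were taken from the labels and columns were matched by name. The members, the other gene lists and the marker lists were chosen with earlier results of these data known. All 34 members could be named, CDKN1A, MDM2, BBC3, BAX, FAS and TNFRSF10B were given in every table, the 5 highest and 5 lowest called members in each deprivation contrast were preferred, and of other genes MDM4, AHR, CYP1A1 and listed genes were named. The level of 1 other listed gene is not reported here. Same-numbered libraries deviated together with a correlation of -0.108 to 0.077, so the replicate numbers were not taken to pair libraries.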

Additional observations from a re-analysis of the deposited data

Results flagged for a closer look

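In the HepG2 time course, the effect of deprivation differed between day 12 and day 3 for 18 members by the interaction test. Of all genes, 23.8% differed upward and 13.9% downward. CDKN1A differed by 1.18 on the log2 scale, MDM2 by 1.32, FAS by 0.81 and FDXR by 2.05. BAX differed by 0.41, a call lost without 1 library in 14 of 24 cases. BBC3 differed by -0.31, a call lost without deprived replicate 2 of day 3 and by voom (-0.19, adjusted p = 0.104).

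With the AhR inhibitor, the effect of deprivation differed from that without it for 14 members, among them CDKN1A (-1.15), MDM2 (-0.85), BBC3 (-1.13) and TNFRSF10D (-1.47). Of all genes, 12.9% changed upward and 9.57% downward, and inhibitor and date label cannot be told apart. With the IDO/TDO inhibitor the effect of deprivation differed for 29 members, among them CDKN1A (-2.07), MDM2 (-2.42), FDXR (-2.39), FAS (-1.50), BAX (-0.98), TNFRSF10B (-0.55), BBC3 (-0.50) and TNFRSF10D (-0.29). Of all genes, 12.2% changed upward and 41.5% downward. FAS passed the low-value filter only through the deprived libraries without inhibitor. Between the AhR and the control guide the effect of deprivation differed for 3 of 32 tested members, FDXR (-0.78), TP53I3 (-0.62) and TNFRSF10D (0.98). Of all genes, 6.16% changed upward and 8.23% downward, together no smaller a share than that of the members. For Kyn with against without the AhR inhibitor, 3 of 31 tested members differed, TNFRSF10D (0.59), CCNG1 (0.39) and SERTAD1 (-0.78). Of all genes, 2.11% changed upward and 6.83% downward, together near the share of the members. The call of CCNG1 was lost without 1 library in 10 of 12 cases and that of SERTAD1 in 2 of 12.

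In liver, 1 column lay far from the other 3 of its diet in 4 of 42 groups of values examined, where chance gives about 1 in 20. Gadd45a was 0.926 TPM in 1 column on the deficient diet and 2.32 to 2.5 TPM in the others. Ddb2 was 6.54 TPM against 8.12 to 8.4 TPM, and Tigar 5.34 TPM against 2.71 to 3.03 TPM, both on the deficient diet. Xpc was 7.63 TPM in 1 control column and 4.65 to 5.06 TPM in the others.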

How the results depend on the processing

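Of 1041 single-gene results, 31 lost their call without the filter on low values. With a pseudocount of 0.25, 3 gained and 3 lost it. After quantile normalization 3 reversed, 37 gained and 45 lost it, and with voom on recovered reads 52 gained and 10 lost it. Over the leave-one-out fits, 14608 values kept their side of the threshold, 281 lost and 93 gained the call. The 3 reversed values, all after quantile normalization, were ZMAT3 in controls from day 3 to day 12 (0.23, adjusted p = 0.00281, against -0.03), TP53INP1 on deprivation in the IDO/TDO table without inhibitor (-0.28, adjusted p = 0.00453, against 0.02), and TNFRSF10D between deprived cells with and without that inhibitor (0.025, adjusted p = 0.795, against -0.22). The cause was not tested beyond the shift of the median of all genes given above.

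Among counts of called members, those that moved by over 1.5 times were deprivation with the IDO/TDO inhibitor by voom (1), the change of the effect between guides by voom (9), deprivation of Ad-Cont hepatocytes without the filter (1), the change of the Kyn effect without the filter (1), and the inhibitor in Kyn-treated cells without the filter (5). Leaving out 1 library gave 0 to 2 with the IDO/TDO inhibitor, 3 to 11 for the change between guides, 10 to 18 for the AhR guide in controls, 1 to 5 for it in deprived cells, 0 to 4 in Ad-Cont hepatocytes, 1 to 3 for Kyn with inhibitor, 1 to 3 for the change of the Kyn effect, 4 to 9 for the inhibitor in Kyn-treated cells and 0 to 1 in liver. With a replicate block, Ad-Cont hepatocytes had 2 calls. The replicate numbers are not known to pair libraries, and the block changed no other count of members by over 1.5 times. Among single genes, 5 gained and 4 lost the call with the block. The liver columns carry no replicate number, so no block was fitted there. Depth limits the low genes: FAS, TNFRSF10A, TNFRSF10C and EDA2R lie near or under 1 TPM in some groups, where log2(TPM + 1) understates a change.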
